A study of Rattus norvegicus with 6 samples.

Results

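The transcripts described here are the rows of the deposited hippocampal lncRNA table that carry the symbol of a gene, such as Tspyl1, Gng2 or Sptssb, in place of an identifier. They were chosen by name, under a rule set with earlier results of these data known. A row was kept when its symbol was neither empty nor an Ensembl or accession-style name, the isoform number was removed to give the gene, and Fendrr, Ufm1, Ubl3, Sumo3, Selenow and Gpx3 were left out. This gave 83 transcripts of 34 genes among 4972 transcripts in all. Of the 34 genes, 11 had 1 listed transcript and 23 had more, up to 6 in Urm1. The symbol alone does not identify a row, since 6 symbols were each carried by 2 Ensembl transcripts; Tspyl1-201 below is ENSRNOT00000102871 unless stated otherwise.

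The RNA came from the hippocampus of 2VO rats, the vascular dementia model of the series, as 3 libraries of rats given sterile water (the 2VO group) and 3 of rats that received the gut-derived metabolite trimethylamine N-oxide (the TMAO group), at a dose of 120 mg/kg. Both treatments lasted 8 weeks. All 6 libraries carry the 2VO procedure, so nothing here compares it with intact animals. The sources used here do not give strain, age or whether a library is a single animal, and the p-values rest on the spread between libraries, which may be technical.

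Many protein-coding genes also make transcripts that are annotated as non-coding, for example because they keep an intron or lack an open reading frame. Such isoforms share exons, and often a start site, with the messenger RNA, so a read from the shared part fits more than 1 of them and a counting program must divide it. Of the 34 genes, 30 were found by symbol in the RefSeq gene table of assembly GRCr8, 28 as protein-coding genes and 2, Lnc134 and Krbox1, as lncRNA genes. The table lists lncRNAs only. The sources used here do not say how reads were divided between these rows and the other isoforms of a gene, and the part this played in any level below was not tested.

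The 6 libraries held 832233 to 919024 counts in the table. The 83 transcripts took 8042, 8940 and 8471 of them in the 2VO group and 8804, 8491 and 8196 under TMAO. That was 0.931 ± 0.0585% of the table in the 2VO group and 0.998 ± 0.0141% under TMAO (SD, n = 3). All TMAO libraries lay above 2VO-1 and 2VO-3, but TMAO-3 lay below 2VO-2, and a two-sided exact permutation test gave p = 0.2, where 0.1 is the smallest value that 3 libraries against 3 can give. Leaving out the 10 most counted transcripts of the table, the shares were 2.1 ± 0.0987% and 2.18 ± 0.0302% (SD, n = 3; exact permutation p = 0.3). In FPKM the share was 0.212 ± 0.0126% and 0.251 ± 0.00773% (SD, n = 3), at the smallest exact permutation p of 0.1. Summed FPKM of the 83 transcripts was nearly level, 150.4 ± 6.61 against 152.5 ± 7.53 (SD, n = 3; exact permutation p = 0.8), while the FPKM total of the whole table was 71074 ± 1590 in the 2VO group and 60718 ± 1454 under TMAO. In whole tissue, fewer cells of a type and less RNA per cell cannot be told apart. None of 32 markers of neurons, glia, endothelium, choroid plexus or blood had a symbol in the table. Of these, 1 of endothelium was named as the source gene of a row. The cell make-up of the tissue could therefore not be read from the table. None of 25 well-known lncRNAs such as Malat1 or Meg3 was listed by symbol. Only 110 of the 4972 transcripts carried a gene symbol, so a missing symbol does not show that a transcript was absent.

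Levels of the genes spanned a wide range, and a few genes held most of the signal. The 3 genes with the highest counts, Tspyl1, Ctxnd1 and Cdc42se1, held 51.8% of the members' counts, and the 8 highest held 85.0%. Of the 83 transcripts, 67 had a count in at least 1 library (80.7%, against 60.2% of the whole table) and 19 had a mean above 1 FPKM (22.9%, against 18.0%). The median level of those with a count was 0.343 FPKM, and 0.202 FPKM over all transcripts with a count. FPKM, which divides counts by length, is used for most gene levels below, and read counts are given for some. A level given for a gene is the sum over its transcripts listed in the lncRNA table. It is not the level of the gene's messenger RNA or protein, and a low value does not mean that the gene is little expressed.

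**Figure D1:**
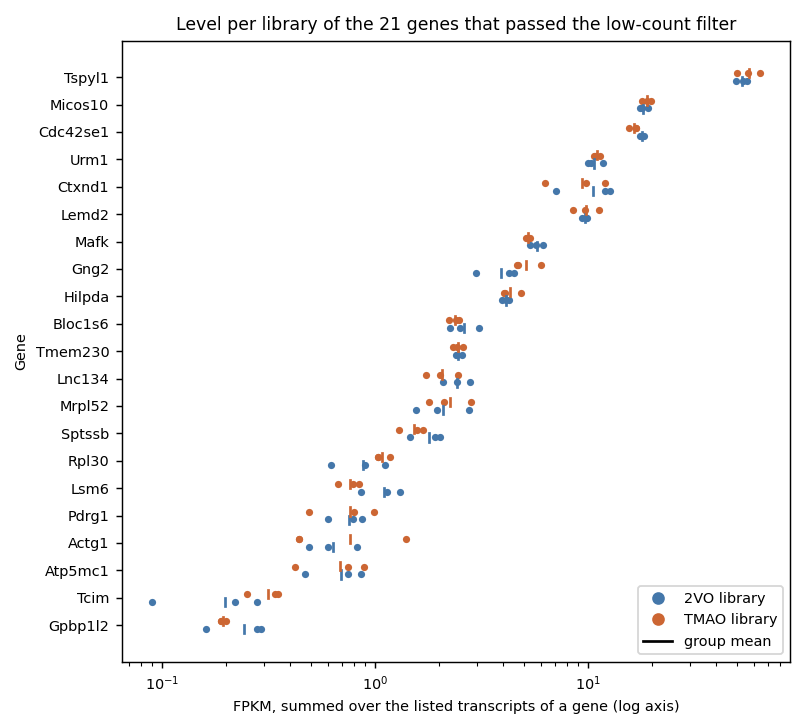
FPKM in each of the 6 libraries, summed over the listed transcripts of a gene, for the 21 genes that passed the low-count filter; dots are libraries, vertical bars are group means, and the x axis is logarithmic. Tspyl1 stands alone at the top, at 49.3 to 64.2 FPKM, and the groups overlap for every gene shown except Gng2, higher under TMAO, and Cdc42se1 and Lsm6, lower under TMAO; for Gng2 the lowest TMAO library, at 4.62 FPKM, lies just above the highest 2VO library, at 4.49.

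Among nuclear factors, Tspyl1 had by far the most abundant listed transcripts. It encodes a relative of the nucleosome assembly proteins, which load histones. Its summed level was 49.3, 55.6 and 53.4 FPKM in the 2VO group and 56.4, 64.2 and 50.2 FPKM under TMAO, 36.2% of the members' total FPKM. The ranges of the groups overlapped, since TMAO-3 lay below 2 of the 2VO libraries. Lemd2, a LEM-domain protein of the inner nuclear membrane, measured 9.70 ± 0.259 FPKM in the 2VO group and 9.82 ± 1.36 FPKM under TMAO (SD, n = 3). Mafk, a small Maf protein that pairs with Nrf2 at antioxidant response elements, measured 5.74 ± 0.416 FPKM and 5.22 ± 0.110 FPKM (SD, n = 3). Snapc5, a subunit of the complex that starts transcription of small nuclear RNAs, had 16 counts, all in 2VO-3.

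The listed transcripts of mitochondrial genes lay at very different levels. Micos10, a core subunit of the MICOS complex that shapes the cristae junctions, ranked 2 by FPKM. It measured 17.5, 19.1 and 17.9 FPKM in the 2VO group and 19.7, 19.01 and 17.95 FPKM under TMAO, a narrow range in which the groups overlapped. Mrpl52, a protein of the large mitochondrial ribosomal subunit, measured 2.09 ± 0.621 FPKM in the 2VO group and 2.24 ± 0.517 FPKM under TMAO (SD, n = 3). Atp5mc1, the gene of a c-ring subunit of ATP synthase, had 1 of its 2 listed transcripts with counts, at 0.693 ± 0.201 FPKM and 0.687 ± 0.241 FPKM (SD, n = 3).

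The listed transcripts of genes of signalling, cytoskeleton and vesicles included several abundant ones. Cdc42se1, a small effector of the GTPase Cdc42, ranked 3 by FPKM at 17.9 ± 0.409 FPKM in the 2VO group and 16.4 ± 0.696 FPKM under TMAO (SD, n = 3). Ctxnd1, a small membrane protein with a cortexin domain, ranked 2 by read count but 5 by FPKM. Its main transcript Ctxnd1-205 had 5.56 times the length of Tspyl1-201, as implied by the ratio of counts to FPKM. Among the 8 genes with the highest counts, Ctxnd1 had the widest spread, with 7.09, 12.66 and 11.98 FPKM in the 2VO group and 6.28, 9.75 and 11.96 FPKM under TMAO. The low libraries, 2VO-1 and TMAO-1, belong to different groups. Tmem230, a membrane protein of transport vesicles, was near-constant at 2.45 ± 0.0850 FPKM and 2.44 ± 0.137 FPKM (SD, n = 3). Bloc1s6, a BLOC-1 subunit for lysosome-related organelles, measured 2.62 ± 0.420 FPKM and 2.36 ± 0.132 FPKM (SD, n = 3). Actg1, cytoplasmic gamma actin, had counts of 24, 19 and 31 in the 2VO group and 60, 17 and 17 under TMAO, so its higher TMAO mean came from TMAO-1.

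The listed transcripts of genes of RNA handling and protein synthesis spread from the high to the low end of the range. Urm1, a ubiquitin-related protein that also donates sulfur to transfer RNAs, ranked 4 by FPKM at 10.7 ± 0.939 FPKM in the 2VO group and 11.0 ± 0.390 FPKM under TMAO (SD, n = 3). Lsm6, a subunit of the LSm ring on U6 small nuclear RNA, measured 1.10 ± 0.227 FPKM and 0.767 ± 0.0874 FPKM (SD, n = 3). Rpl30, a ribosomal protein, measured 0.877 ± 0.246 FPKM and 1.08 ± 0.0866 FPKM (SD, n = 3).

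Lipid and stress genes included Hilpda, a protein of lipid droplets that hypoxia induces. Its counts were 127, 128 and 128 in the 2VO group and 168, 124 and 125 under TMAO, with TMAO-1 alone above the rest. Sptssb, a small subunit of serine palmitoyltransferase, the enzyme that starts sphingolipid synthesis, measured 1.79 ± 0.293 FPKM in the 2VO group and 1.52 ± 0.196 FPKM under TMAO (SD, n = 3). Pdrg1, a gene regulated by p53 and DNA damage, measured 0.753 ± 0.139 FPKM and 0.760 ± 0.252 FPKM (SD, n = 3). Tcim, known in human cells as a positive regulator of Wnt signalling, had counts of only 13, 10 and 4 in the 2VO group and 17, 15 and 11 under TMAO. Gpbp1l2 lay at 0.243 ± 0.0723 FPKM and 0.193 ± 0.00577 FPKM (SD, n = 3). The lncRNA gene Lnc134 measured 2.43 ± 0.350 FPKM and 2.07 ± 0.368 FPKM (SD, n = 3).

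The study asked how TMAO alters lncRNAs in these rats, and no symbol-carrying transcript or gene passed the test. In the edgeR quasi-likelihood test across the whole table, 42 of the 83 transcripts passed the low-count filter. Of these, 0 had an adjusted p under 0.05, and the smallest was 0.673; over the 1389 transcripts tested the share called was 0%. At an unadjusted p under 0.05 there were 0 of 42, against 7.56% of all transcripts tested, and at an unadjusted p under 0.1 there were 2, against 13.5%. DESeq2 also called 0 of the 42 at an adjusted p under 0.05, against 1.22% over the table, and 0 at an unadjusted p under 0.05, against 5.83%. The values of the groups did not overlap for 3 of the 42 (7.14%), against 14.4% of all transcripts tested; 1 was higher under TMAO and 2 lower, against 7.2% of all in each direction. Of the 42, 25 had a log2 fold change above 0 and 17 below, with a median of 0.088; 50% of all tested were above 0, with a median within 0.001 of 0.

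Summing the transcripts of each gene gave the same picture and removed the effect of how reads are divided between the listed isoforms. Of the 34 genes, 21 passed the filter. The number past an adjusted p of 0.05 in edgeR was 0, with a smallest adjusted p of 0.599, against 0% of 1224 genes. At an unadjusted p under 0.05 it was 0, against 7.68%, and at an unadjusted p under 0.1 it was 2, against 14.6%. DESeq2 called 0 at an adjusted p under 0.05, against 1.14%, and 1, Gng2, at an unadjusted p under 0.05, against 6.37%. For 13 genes the log2 fold change was above 0 and for 8 below, with a median of 0.057 beside -0.006 for all genes; 48.8% of all genes were above 0. A window of 0.2 on the log2 scale, chosen after the values were seen, held 15 of the 21 (71.4%) and 45.3% of all genes. The genes here were also more deeply counted, with a median of 146.5 against 69.4 counts per library. At or above that member median the window held 9 of 11 of them and 62.8% of all genes. With 3 libraries a group, single libraries weighed heavily: with 1 left out, the log2 fold change moved by over 1.5 times, or turned sign, for 20 of the 21 gene sums, all but Micos10, and for 40 of the 42 transcripts.

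**Figure D2:**
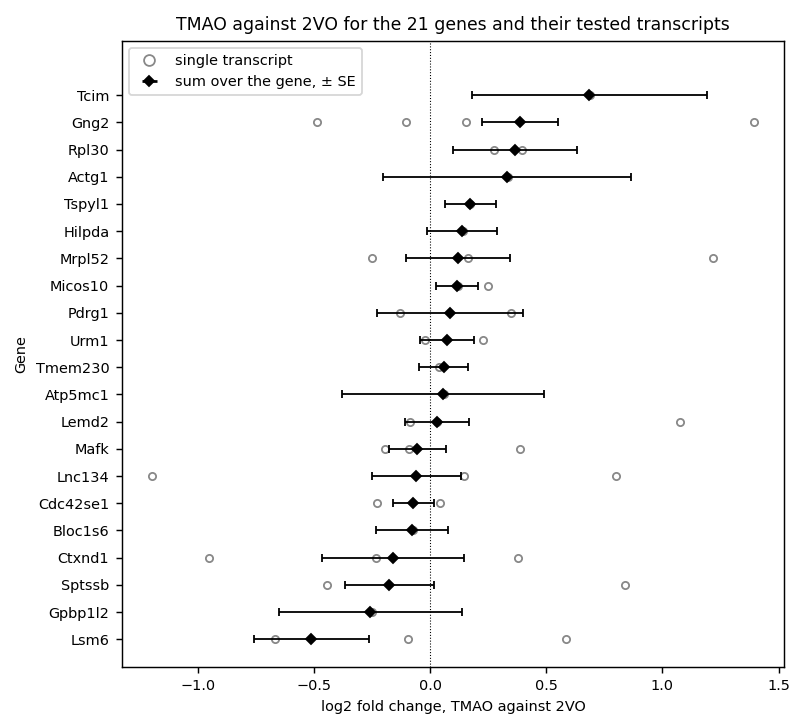
Log2 fold change of TMAO against 2VO, in the edgeR quasi-likelihood fit, for the 21 genes past the low-count filter; filled diamonds are sums over a gene with their SE, and open circles are its single transcripts that passed the filter. Gene sums run from -0.51 for Lsm6 to 0.68 for Tcim, and single transcripts from -1.20 for Lnc134-204 to 1.39 for Gng2-202. A sum pools its transcripts, so transcripts on both sides of it are no trait of a gene.

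Gng2, the gamma-2 subunit that anchors heterotrimeric G proteins to the membrane with a beta subunit, had the smallest p of the gene sums. Its summed counts were 277, 371 and 359 in the 2VO group and 433, 482 and 383 under TMAO. Every TMAO library lay above every 2VO library, the only such case among the 21 genes (4.76%, against 14.6% of all genes, or 7.43% higher and 7.19% lower under TMAO). In FPKM, scaled by the authors' own depth, 3 genes had no overlap (14.3%, against 14.5% of all genes), Gng2, Cdc42se1 and Lsm6. The level was 380 ± 60.8 CPM in the 2VO group and 497 ± 60.2 CPM under TMAO (SD, n = 3), 1.31-fold higher, with a log2 fold change of 0.39 (SE 0.16). The unadjusted edgeR p was 0.0506 and the adjusted p 0.599. DESeq2 gave an unadjusted p of 0.0434 and an adjusted p of 0.779. Without TMAO-2 the log2 fold change in edgeR was 0.28 and without 2VO-1 it was 0.24, the lowest values with a library left out.

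Lsm6 had the smallest p among gene sums lower under TMAO. It had 192, 119 and 208 counts in the 2VO group and 138, 127 and 95 under TMAO, and 2VO-2 lay within the TMAO range of counts. The level was 196 ± 54.6 CPM against 137 ± 20.7 CPM (SD, n = 3), 1.43-fold lower. The log2 fold change was -0.51 (SE 0.25), and edgeR gave an adjusted p of 0.643. With a library left out the log2 fold change ran from -0.34 without 2VO-3 to -0.71 without 2VO-2, where the unadjusted edgeR p was 0.00997 and the adjusted p 0.445. Most of its counts were in Lsm6-202, with 155, 82 and 194 counts in the 2VO group and 99, 104 and 64 under TMAO.

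Tspyl1 had the next smallest p among sums higher under TMAO. It was 1.13-fold higher, with a log2 fold change of 0.17 (SE 0.11) and an adjusted p of 0.758 in edgeR. With a library left out the log2 fold change of Tspyl1 ran from 0.09 without TMAO-2 to 0.25 without TMAO-3. For Tspyl1-201 alone it was 0.28 without TMAO-3, at an unadjusted edgeR p of 0.0386 and an adjusted p of 0.615. Rpl30 followed, at 102, 50 and 72 counts in the 2VO group and 109, 93 and 83 under TMAO. The 2VO-1 library lay among the TMAO libraries, and without it the unadjusted edgeR p of Rpl30 was 0.0363, with an adjusted p of 0.663. With all libraries the log2 fold change was 0.37 (SE 0.27) and the adjusted p in edgeR 0.822, and without 2VO-2 the log2 fold change of Rpl30 was 0.16. Micos10 had a log2 fold change of 0.12 (SE 0.09) and Tcim, the largest of the 21 at few counts, of 0.68 (SE 0.51), and edgeR's adjusted p was 0.822 for each. The value for Tcim was 1.01 without 2VO-1 and 0.34 without 2VO-3. Below 0, Sptssb had a log2 fold change of -0.18 (SE 0.19), Cdc42se1 of -0.07 (SE 0.09) and Ctxnd1 of -0.16 (SE 0.31), and their adjusted p in edgeR were 0.852, 0.856 and 0.898.

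The remaining named genes differed by less than 0.1 on the log2 scale. Urm1 had a log2 fold change of 0.07 (SE 0.12), Tmem230 of 0.06 (SE 0.11), Lemd2 of 0.03 (SE 0.14) and Lnc134 of -0.06 (SE 0.19), with adjusted p in edgeR of 0.885, 0.897, 0.962 and 0.936. The sign for Tmem230 turned with limma on FPKM, and those for Lemd2, Ctxnd1 and Lnc134 turned with 1 library left out. In the limma fits the median log2 fold change over all genes tested was -0.039 to -0.073, against -0.006 in edgeR.

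Isoform shares were the second readout. The share of a transcript is its part of the summed counts of the gene's listed transcripts in a library. Of the 34 genes, 15 had at least 2 transcripts with counts and 10 or more counts in every library. Their leading isoform held between 47.2% (Gng2-203) and 99.5% (Tspyl1-201) of the counts on average. It held over 90% in 3 genes, Tspyl1, Tmem230 and Micos10, and under 60% in 6, Gng2, Pdrg1, Mrpl52, Urm1, Lnc134 and Cdc42se1. A share depends on the scale where isoforms differ in length. Mrpl52-204, at 0.751 of the length of Tspyl1-201, held 52.9% of its gene's counts but 73.4% of its FPKM. The other Mrpl52 isoforms with counts were longer, at 1.16 to 2.19 times the length of Tspyl1-201.

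None of the 15 leading shares separated the groups with all 6 libraries. With 1 library left out, 0 to 3 did: Sptssb-202, Lnc134-201 and Lemd2-204 without TMAO-1, Ctxnd1-205 and Mrpl52-204 without 2VO-2, Gng2-203 without 2VO-3 and Tspyl1-201 without TMAO-2. Fewer libraries separate more readily by chance, and the share over the whole table with 1 left out is not given here. These cases are therefore no result about the genes named. With all 6, the exact permutation p ran from 0.3 to 1, where 3 libraries against 3 cannot go below 0.1. Over all 50 isoform shares of these genes, the groups did not overlap for 4 (8.00%), those of Gng2-205, Lnc134-202, Lnc134-204 and Ctxnd1-203, against 10.5% of the 342 isoform shares in the whole table. In edgeR's test of transcript usage, 13 of these genes could be fitted, and 0 passed an adjusted p of 0.05 (Simes), against 1.79% of the 112 genes. The smallest adjusted p among the 13 was 1.00 when rounded. At an unadjusted Simes p under 0.05 there were also 0 of 13, against 3.57%, and at an unadjusted p under 0.05 in the gene-level F test 0 of 13, against 7.14%.

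**Figure D3:**
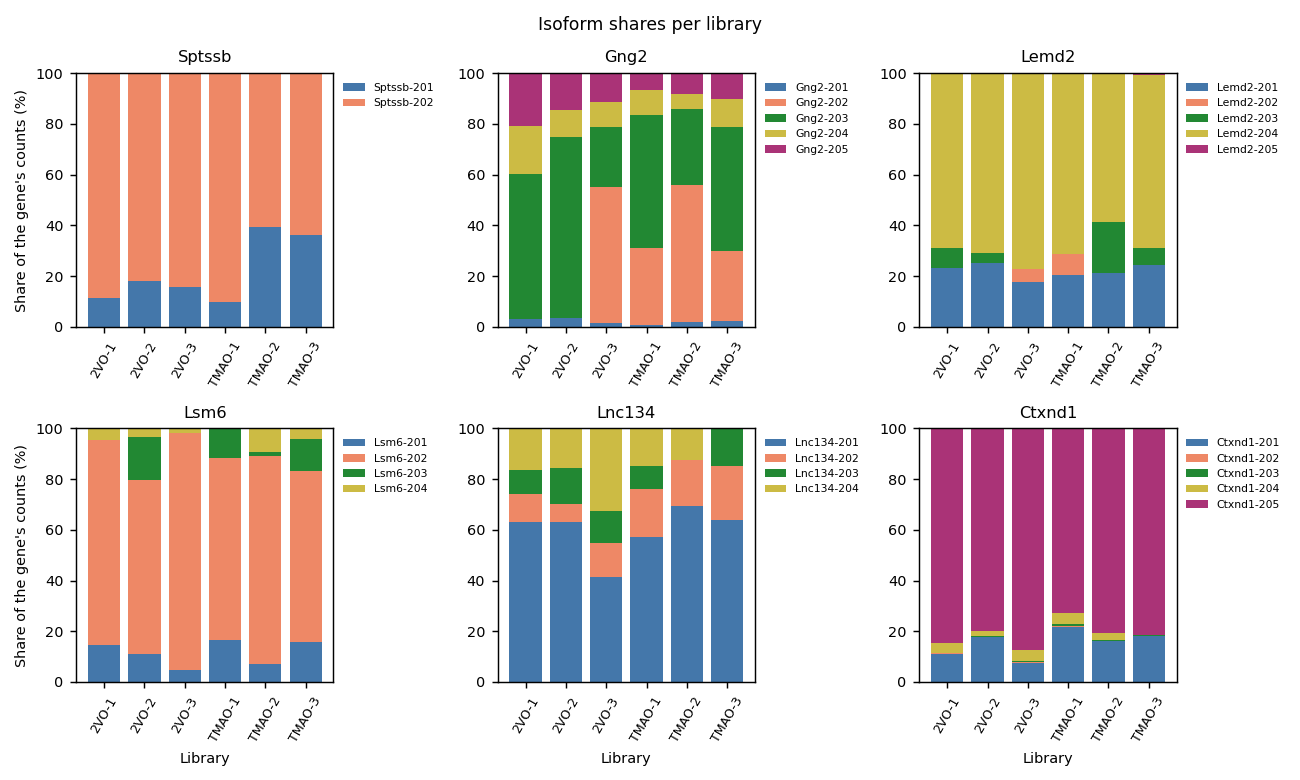
Share of each gene's listed counts held by each of its transcripts, in percent, in the 6 libraries, for 6 genes with large differences of leading share or with transcripts at 0 in some libraries. Sptssb-201 takes 36.1% and 39.2% in TMAO-3 and TMAO-2 and at most 17.9% in the other libraries, and Gng2-202 is absent from 2VO-1 and 2VO-2 but takes 27.7% to 54.1% elsewhere.

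Sptssb had the largest difference of leading share. Sptssb-202 held 88.8%, 82.1% and 84.2% of the gene's counts in the 2VO group and 90.3%, 60.8% and 63.9% under TMAO. The TMAO-1 library lay above all 2VO libraries and the other two TMAO libraries below them, so the groups overlapped. The means were 85.0 ± 3.43% and 71.7 ± 16.2% (SD, n = 3), a difference of -13.4 percentage points with an exact permutation p of 0.4. In counts, Sptssb-202 had 119, 78 and 101 in the 2VO group and 84, 62 and 69 under TMAO, with a log2 fold change of -0.45 (SE 0.21). The adjusted p of 0.673 in edgeR was the smallest of all member transcripts. Sptssb-201 had 15, 17 and 19 counts in the 2VO group and 9, 40 and 39 under TMAO, with a log2 fold change of 0.84 (SE 0.59) and an adjusted p of 0.831 in edgeR. With a library left out its log2 fold change ran from 0.55 without TMAO-2 to 1.28 without TMAO-1, where the unadjusted edgeR p was 0.00567 and the adjusted p 0.495. It was 0.62 with a replicate block and 0.42 in limma on log2(FPKM + 0.1). The usage test of Sptssb without TMAO-1 gave an adjusted p of 0.0280 by edgeR's F test and 0.906 by its Simes test, and with all libraries 0.668 and 1.00. The transcripts were of similar implied length, 2.31 and 2.24 times that of Tspyl1-201, and their sum was 134, 95 and 120 counts against 93, 102 and 108.

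Lnc134 was next, and the shares of its minor isoforms Lnc134-202 and Lnc134-204, but not Lnc134-203, differed more than that of the leading one. The leading Lnc134-201 held 55.8 ± 12.6% in the 2VO group and 63.5 ± 6.0% under TMAO (SD, n = 3; exact permutation p = 0.4). Lnc134-202 had 8, 6 and 11 counts in the 2VO group and 14, 16 and 13 under TMAO, and Lnc134-204 had 12, 13 and 26 against 11, 11 and 0. The groups did not overlap for either, in opposite directions. Their log2 fold changes were 0.80 (SE 0.41) and -1.20 (SE 0.95), with adjusted p of 0.719 and 0.851 in edgeR. Lnc134-204 was at 0 in TMAO-3 and Lnc134-203 at 0 in TMAO-2. The other tested transcript without overlap was Mafk-203, with 279, 299 and 264 counts in the 2VO group and 279, 253 and 244 under TMAO, separated only after scaling for library size. Its log2 fold change was -0.09 (SE 0.12).

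In Lsm6, Lsm6-202 held 81.0 ± 12.2% of the counts in the 2VO group and 73.7 ± 7.45% under TMAO (SD, n = 3; exact permutation p = 0.5). Its log2 fold change was -0.67 (SE 0.35) at an adjusted p of 0.739 in edgeR, and with a library left out it ran from -0.36 without 2VO-3 to -0.94 without 2VO-2. Lemd2-204 held 72.2 ± 4.44% and 65.9 ± 6.65% (SD, n = 3; exact permutation p = 0.3). Ctxnd1-205 held 84.0 ± 3.85% and 78.2 ± 4.70% (SD, n = 3; exact permutation p = 0.3), and Ctxnd1-201 took most of the rest. Ctxnd1-201 had 117, 352 and 133 counts in the 2VO group and 213, 237 and 313 under TMAO, with 2VO-2 the highest library of all; without it the log2 fold change of 0.38 was 1.07, at an unadjusted edgeR p of 0.00793 and an adjusted p of 0.462, and without 2VO-1 it was 0.09. The 2 Cdc42se1 isoforms were nearer to parity. Cdc42se1-202 held 57.7 ± 5.90% and 62.2 ± 5.52% (SD, n = 3; exact permutation p = 0.5). Micos10-201 held 98.0 ± 0.445% and 97.8 ± 0.783% (SD, n = 3; exact permutation p = 0.8). Tspyl1-201 held 99.7 ± 0.113% and 99.4 ± 0.568% (SD, n = 3; exact permutation p = 0.5).

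Gng2 had the lowest leading share of the 15 genes and a wide spread of it between libraries. Gng2-203 held 57.0%, 71.4% and 23.7% of its counts in the 2VO group and 52.2%, 29.9% and 48.8% under TMAO, with an exact permutation p of 0.7 for the difference. Gng2-202 had no count in 2VO-1 and 2VO-2, 192 counts in 2VO-3, and 132, 261 and 106 counts under TMAO. The 2VO-3 value lay among the TMAO values, so the groups overlapped. The log2 fold change was 1.39 (SE 1.63), at an adjusted p of 0.879 in edgeR, and DESeq2 gave no p. The 2VO-3 library held this value down. Without it, only 2VO-1 and 2VO-2 were left in the 2VO group, where Gng2-202 had no count. The fitted log2 fold change was then 10.4, at an unadjusted edgeR p of 0.000231 and an adjusted p of 0.174. With no 2VO count left, 10.4 is not a measured fold. With another library left out the log2 fold change of Gng2-202 ran from 0.81 to 1.65. The usage test of Gng2 turned on the same library, with an adjusted Simes p of 2.0e-05 in edgeR without 2VO-3 and between 0.9988 and 0.9995 with all libraries or another left out. Gng2-205 was at the opposite sign, with 58, 54 and 41 counts in the 2VO group and 28, 39 and 39 under TMAO. Its share of Gng2 was 20.9%, 14.6% and 11.4% in the 2VO group and 6.47%, 8.09% and 10.2% under TMAO, without overlap, but its own log2 fold change of -0.49 (SE 0.26) had an adjusted p of 0.751 in edgeR. Summed with Gng2-203, Gng2-202 gave 158, 265 and 277 counts in the 2VO group and 358, 405 and 293 under TMAO.

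Some isoforms were at 0 in one library and well counted in another. Of 42 member transcripts that reached 20 counts in a library, 7 had no count in another (16.7%), against 8.84% of 1369 such transcripts in the whole table and 8.40% of those from other genes or loci with more than 1 transcript. They were Gng2-202, Lemd2-202, Lemd2-203, Ctxnd1-204, Lnc134-204, Lsm6-203 and Tmem230-201. Summed per gene, 0 of 20 genes that reached 20 counts had a library at 0. Summing over transcripts can only remove such zeros, and the share over all genes is not given here. The limit of 20 was chosen after the values were seen, and the difference in shares was not tested.

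Lemd2 and Sertm2 showed this in its sharpest form. Lemd2-202 had 29 counts in 2VO-3 and 58 in TMAO-1 and none elsewhere. Lemd2-203 had 44 and 24 counts in 2VO-1 and 2VO-2 and 106 and 31 in TMAO-2 and TMAO-3, and none in the libraries that held Lemd2-202. Together they gave 44, 24 and 29 counts in the 2VO group and 58, 106 and 31 under TMAO, so every library held exactly 1 of the pair. Sertm2, a membrane protein with serine-rich domains, had the same arrangement at low counts. Sertm2-201 had 5, 0 and 0 counts in the 2VO group and 12, 0 and 10 under TMAO, and Sertm2-202 had 0, 6 and 6 in the 2VO group and 0, 8 and 0 under TMAO. The isoforms of a pair had nearly equal implied length, 1.39 and 1.38 times that of Tspyl1-201 in Lemd2 and 3.89 and 3.90 times in Sertm2. Among pairs of transcripts of 1 gene with at least 10 counts each, 2 of 63 here were never counted in the same library while 1 of the pair was counted in each (3.17%), against 2 of 323 in the rest of the table (0.619%). Pairs never counted in the same library, without that further condition, were also 2 of 63 here, against 4 of 323 (1.24%). The libraries that held the first isoform of a pair came from both groups. Pairs of a gene share their gene, and the difference between these shares was not tested.

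**Figure D4:**
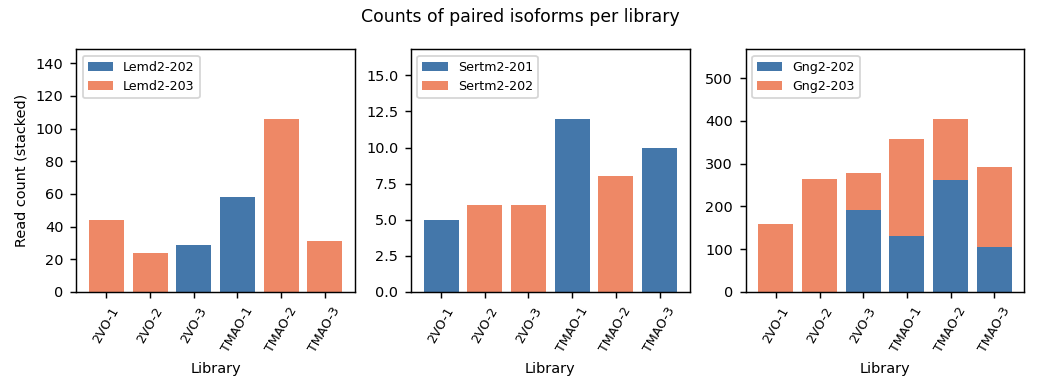
Stacked read counts per library of a pair of isoforms from Lemd2, Sertm2 and Gng2; each colour is a transcript. In Lemd2 and Sertm2 each library holds counts of only 1 of the pair, and in Gng2 the libraries 2VO-1 and 2VO-2 hold Gng2-203 alone.

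Spread between libraries within groups followed the same division. It is given as edgeR's biological coefficient of variation, the relative spread left after counting error. Its median was 0.329 over the 42 member transcripts and 0.277 over all transcripts tested. Summed per gene, it was 0.191 over the 21 member genes and 0.248 over all genes. The member genes were also more deeply counted, at a median of 146.5 against 69.4 counts per library, and the part of depth was not tested. It exceeded 0.9, a limit chosen after the values were seen, in 5 of the 42 transcripts (11.9%), against 5.26% of all. It did so in 0 of the 21 gene sums, in which the highest was 0.467 for Actg1. The share of all genes above 0.9 is not given here, so this is no trait of the member genes. The 5 were Gng2-202 at 1.65, Lemd2-203 at 1.52, Lsm6-203 at 1.35, Mrpl52-203 at 1.10 and Ctxnd1-204 at 0.920. For Gng2 and Lemd2 the gene sums were at 0.187 and 0.168.

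**Figure D5:**
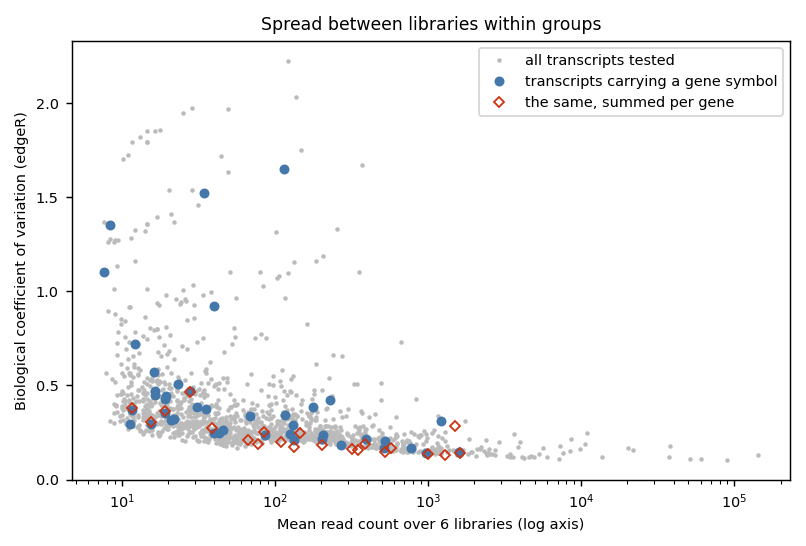
Biological coefficient of variation from edgeR against mean read count (log axis) for all 1389 transcripts tested (grey), the 42 symbol-carrying transcripts (blue) and the 21 sums per gene (red diamonds). The 5 blue points above 0.9 are isoforms of Gng2, Lemd2, Lsm6, Mrpl52 and Ctxnd1, and all gene sums lie below 0.5.

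Below the filter, 25 transcripts had counts but were left out of the test, and 9 genes were represented by such transcripts alone. Some had few counts, and others, such as Lemd2-202 and Tmem230-201, were at 0 in most libraries. Sertm2, summed, had 5, 6 and 6 counts in the 2VO group and 12, 8 and 10 under TMAO, without overlap, at an exact permutation p of 0.1 on CPM, the smallest possible; it was singled out after its values were seen. Nupr1l1 had 15, 3 and 11 counts against 5, 7 and 2. MGC105649 had 17, 0 and 3 counts against 3, 1 and 0. Rab32, a GTPase of lysosome-related organelles, had 8 counts over all libraries, and Samd8, a ceramide phosphoethanolamine synthase, had 5. Ufsp1, a protease that matures or removes the modifier Ufm1, had 3, the chemokine Ccl22 had 2 and the protocadherin Pcdhga1 had 1. Tmem230-201 had 27 counts in TMAO-2 and none elsewhere, beside a near-constant Tmem230-202 with 549, 502 and 491 counts in the 2VO group and 601, 455 and 501 under TMAO.

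No count in any library was found for 16 transcripts, including all those of Gid4, Krbox1, RGD1565753 and RGD1559724. Gid4 is a substrate receptor of a ubiquitin ligase. A count of 0 over the 6 libraries allows up to 3 counts, or 0.570 CPM, by counting error alone. In the authors' deposited table no member had an unadjusted p under 0.05, against 97 of the 4972 transcripts, and the smallest was 0.0664, for Tmem230-201. None of the 83 was among the 56 transcripts of the authors' second deposited table.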

How the data were processed

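Raw read counts and FPKM, rounded to 2 decimals, were deposited by the authors for 4972 lncRNA transcripts in each library, with a second table of 56 of them. The authors' log2 ratio of mean FPKM, p-value and false discovery rate stand beside them; the sources used here do not name the test. Build rn6 and the tools HISAT2 2.1.0, fastp 0.18.0, StringTie, Bowtie2 and DESeq2 are named in the submitters' processing notes; their roles, the counting method and the strand setting are not given. Unstranded counts cannot tell a gene from an antisense partner.

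The test on counts was the quasi-likelihood test of edgeR 4.0.16 (TMM, filterByExpr with a minimum count of 10 and total of 15) in R 4.3.3, per transcript and summed per gene, with Benjamini-Hochberg adjustment over all 1389 transcripts or 1224 genes. Each SE is the log2 fold change divided by the square root of F. Usage within genes was tested with diffSpliceDGE. CPM used TMM effective sizes. Single values had two-sided exact permutation tests (SciPy 1.17.1). Alternatives were DESeq2 1.42.0, its size factors, other filters, limma 3.58.1 on log2 FPKM (pseudocount 0.1, 0.01 or 1), a replicate block and leaving out each library. Models were checked on simulated counts. Relative lengths are ratios of depth-scaled counts to FPKM, and are coarse at low FPKM. Libraries of a group differed by 11.4 to 15.7 chi-square units per degree of freedom, more than counting error gives. This cannot tell separate animals from separate preparations of the same RNA. Depth bounds precision: intervals for counting error alone do not cover the spread between libraries.

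The members, lists and tests were chosen with earlier results of these data known. Values in full were given for the genes Sptssb, Lsm6, Gng2, Tspyl1, Micos10, Cdc42se1 and Tcim, the 8 with the highest mean counts, the 3 with the smallest p per direction, and the 5 with the largest difference of leading share. Further genes, among them Mafk, Mrpl52, Atp5mc1, Bloc1s6, Pdrg1, Gpbp1l2 and Actg1, fall outside that rule and were added after their values were seen, mostly as group means.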

Additional observations from a re-analysis of the deposited data

How the results depend on the processing

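Under every alternative, 0 of the member transcripts and gene sums passed an adjusted p of 0.05; in the usage test Gng2 did so without 2VO-3 (Simes and F test) and Sptssb without TMAO-1 (F test only). Over the whole table the count of transcripts past it was 0, and 17 with DESeq2, 2, 2 and 0 in limma (pseudocount 0.1, 0.01 and 1), and, leaving out 1 library, 0 to 1. For genes it was 0, and 14 with DESeq2, 3 without the filter, 1, 1 and 0 with limma, and 0 to 1 with a library left out. Member transcripts at an unadjusted p under 0.05 numbered 0, 2 without the filter (Tmem230-201 and MGC105649-202) and 0 to 4 leaving out 1 library, the 4 without 2VO-2 (Lsm6-202, Lsm6-203, Sptssb-202 and Ctxnd1-201); member genes numbered 0, 1 with DESeq2 (Gng2), 2 without the filter (Gng2 and Snapc5) and 0 to 1 leaving out 1 library. Leading shares without overlap were 0, 1 in FPKM (Ctxnd1-205), and 0 to 3 with a library left out, where fewer libraries separate more readily. Usage calls in the whole table were 2, 1 without the filter, and 1 to 3 leaving out 1 library. The members' share of counts was 0.067 points higher in TMAO, and 0.039 to 0.098 with a library left out.

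Of the named log2 fold changes, these turned direction. With limma at pseudocounts of 0.1, 0.01 and 1, Cdc42se1-202 went from 0.043 to -0.025, -0.025 and -0.023, and Tmem230 from 0.057 to -0.0065, -0.0068 and -0.0046. At the same pseudocounts the median log2 fold change over all genes tested was -0.069, -0.073 and -0.039, against -0.006 in edgeR. With a library left out, Cdc42se1-202 ran from -0.022 to 0.11, Gng2-203 from -0.15 to 0.65, Gng2-204 from -0.20 to 0.063, Lsm6-201 from -0.41 to 0.44, Ctxnd1 from -0.40 to 0.072, Lemd2 from -0.10 to 0.11 and Lnc134 from -0.22 to 0.039. The cause was not tested.

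Libraries with the same number had deviations from their group means with correlations of -0.050, 0.20 and 0.038, so the numbers were not read as pairs. With the replicate block, member genes at an unadjusted p under 0.05 numbered 1 (Gng2, at an edgeR adjusted p of 0.577), there was 1 usage call in the whole table, and the fitted log2 fold change of Gng2-202 was 4.26. Counts limit Tcim, Sertm2 and the other genes below about 12 counts per library.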
